A study of Mus musculus with 4 samples.

Results

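The let-7 passenger strands were followed as the 3p strands of 9 mouse let-7 hairpins: mmu-let-7a-1-3p, mmu-let-7b-3p, mmu-let-7c-2-3p, mmu-let-7d-3p, mmu-let-7e-3p, mmu-let-7f-1-3p, mmu-let-7f-2-3p, mmu-let-7g-3p and mmu-let-7i-3p. They were chosen by name, as the annotated 3p strands of let-7 hairpins that had reads, and make up 9 of the 1915 mature miRNAs listed. Small RNA had been sequenced from MIN6, a mouse pancreatic beta cell line derived from an insulinoma, in 2 libraries, and from the exosomes that the same line releases into its medium, in 2 libraries. Both groups came from cells grown without any further treatment or genetic change in DMEM with exosome-depleted fetal bovine serum, penicillin-streptomycin and β-mercaptoethanol. Exosomes were collected from conditioned medium pooled over flasks by differential centrifugation, filtration, ultrafiltration and ultracentrifugation. The comparison asked which miRNAs of an insulinoma line are present at other levels in its exosomes. MIN6 is a single tumor line, so it stands in for beta cells only as far as such a line can. The labels do not say whether the libraries of a group came from separate cultures, so p-values measure only the spread between these libraries.

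A miRNA is cut from a hairpin-shaped precursor as a short duplex. The strand that is loaded into an Argonaute protein (the guide) finds target mRNAs through its seed, and the other strand (the passenger) is usually degraded, so that it is recovered at a lower level. In the let-7 family, which restrains growth and keeps cells differentiated, the 5p strand is the usual guide and the 3p strand the usual passenger.

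The mature sequences of the 9 strands are shown because the 5p guides share 1 seed and the 3p strands do not. All 9 were identical in the deposited tables and in RefSeq. The seed (bases 2 to 8) is in capitals, and each sequence runs 5′ to 3′.

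let-7a-1-3p: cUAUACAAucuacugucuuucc
let-7c-2-3p: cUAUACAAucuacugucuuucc
let-7b-3p: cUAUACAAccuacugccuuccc
let-7f-1-3p: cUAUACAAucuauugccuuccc
let-7f-2-3p: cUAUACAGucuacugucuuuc
let-7d-3p: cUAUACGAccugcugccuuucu
let-7e-3p: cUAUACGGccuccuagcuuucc
let-7i-3p: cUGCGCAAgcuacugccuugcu
let-7g-3p: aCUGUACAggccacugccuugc
let-7a-5p (a guide, for comparison): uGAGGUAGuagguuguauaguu

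The 9 names stand for 8 distinct sequences, since let-7a-1-3p and let-7c-2-3p are identical and hold the same reads in the table. Their seeds fall into 6 groups. UAUACAA is shared by let-7a-1-3p, let-7b-3p, let-7c-2-3p and let-7f-1-3p, and among the other mature miRNAs only miR-98-3p carries it. UAUACAG (let-7f-2-3p), UAUACGA (let-7d-3p), UAUACGG (let-7e-3p), UGCGCAA (let-7i-3p) and CUGUACA (let-7g-3p) were each found in 1 strand. Counted from the 5′ end, let-7b-3p differs from let-7a-1-3p by U9C, U16C and U20C, and let-7f-1-3p by C13U, U16C and U20C. let-7f-2-3p, with 21 bases against 22 in the others, differs by A8G alone over the shared length, and let-7g-3p is the most distant, with 17 substitutions. The strands are of nearly equal length, so counts were compared between them without a length correction. Whether library preparation captured each sequence equally well was not tested, so ratios between strands are ratios of reads.

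The hairpins lie at 6 places in the genome (GRCm38). On chromosome 13, Mirlet7d (chr13:48536012-48536114), Mirlet7f-1 (chr13:48537829-48537917) and Mirlet7a-1 (chr13:48538179-48538272) sit on the minus strand in exons of the lincRNA 6720427I07Rik, with 1714 bases between the first pair and 261 between the second. On chromosome 15, Mirlet7c-2 (chr15:85706603-85706697) and Mirlet7b (chr15:85707319-85707403) are 621 bases apart on the plus strand in exons of the noncoding transcript Lncppara. Mirlet7f-2 (chrX:151912346-151912428) is followed by Mir98 after 785 bases in an intron of the ubiquitin ligase gene Huwe1. Mirlet7e (chr17:17830352-17830444) is in an intron of Spaca6, Mirlet7g (chr9:106178840-106178927) in an intron of Wdr82, and Mirlet7i (chr10:122985640-122985724) in an exon of the pseudogene D630033A02Rik. The hairpins of let-7d and let-7f-1 are shown with both arms in capitals, because these neighbours carry the most abundant 3p strand and the strand whose balance with its guide differed most between libraries.

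let-7d hairpin: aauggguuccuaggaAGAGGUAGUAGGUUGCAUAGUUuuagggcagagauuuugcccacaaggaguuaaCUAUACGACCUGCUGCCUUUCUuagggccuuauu
let-7f-1 hairpin: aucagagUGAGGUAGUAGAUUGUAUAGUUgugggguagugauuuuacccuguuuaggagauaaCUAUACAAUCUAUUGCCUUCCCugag

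let-7a-5p, let-7c-5p and let-7f-5p can each be cut from a second hairpin as well. The 3p share of let-7f-1 and of let-7f-2 therefore sets the 3p strand of 1 hairpin against a guide shared by both, and that of let-7a-1 and of let-7c-2 sets 3p reads that cannot be assigned to either hairpin against a guide with a further source, while for let-7b, let-7d, let-7e, let-7g and let-7i both strands come from a single hairpin.

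Depth differed strongly between the groups. The cell libraries held 2930217 and 2564068 counts on mature miRNAs and the exosome libraries 47447 and 31409, and a count of 3, used here as the floor of detection, corresponded to 1.02 and 1.17 RPM (reads scaled to the sum of the library) in the cells and to 63.2 and 95.5 RPM in the exosomes. All 9 strands had reads in both cell libraries, 8 had reads in exosome library 1, and 5 in exosome library 2. The paper names a different instrument for checking cell and exosome libraries, so that handling and group cannot be told apart. Of the 9 beta cell markers, 9 were detected in each cell library, at a summed level of 60620 to 60950 RPM, and 7 to 9 in the exosomes at 13754 to 33068 RPM. miR-375-3p, with 26702 and 25335 reads in cells and 507 and 222 in exosomes, overlapped between the groups in RPM. So did miR-184-3p, with 14086 and 9421 reads in cells and 381 and 144 in exosomes. The sum fell through the other members, which were lower in both exosome libraries. Markers of other cells moved the opposite way: the 3 erythroid miRNAs summed to 1.02 to 1.56 RPM in cells and 987 to 5838 in exosomes, the 3 myeloid ones to 0.341 to 0.390 and 669 to 1686, miR-122-5p of liver was at 4.44 to 8.19 and 1665 to 1974, the 4 mesenchymal ones were at 10.1 to 14.3 and 1751 to 1770, and miR-126a-3p of endothelium was at 15.0 to 25.0 and 732 to 780. Of the 3 muscle markers miR-133a-3p and miR-206-3p were at 0 throughout, and the list summed to 11.3 to 16.0 RPM in cells and 0 to 63.2 in exosomes. Less let-7 per particle and a different mix of RNA sources cannot be told apart in such bulk libraries, and the part of these markers in the results below was not tested.

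In the cells the 3p strands spanned a wide range, and let-7d-3p stood far above the rest. let-7d-3p had 32550 and 28233 reads, or 11060 RPM ± 68.9 (SD, n = 2). This was the 15th most abundant of all mature miRNAs in both cell libraries, at 9.57 and 9.38 times the level of the next strand. let-7a-1-3p and let-7c-2-3p followed with the same 3400 and 3009 reads, or 1167 RPM ± 9.34 (SD, n = 2). let-7b-3p had 2539 and 2095 reads, or 842 RPM ± 35.0 (SD, n = 2).

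Below these came a pair of strands of like level and 3 rare ones. let-7f-1-3p had 1294 and 1104 reads (436 RPM ± 7.81, SD, n = 2) and let-7i-3p 1264 and 1020 reads (415 RPM ± 23.7, SD, n = 2). These neighbours in the order overlapped between libraries. The rare strands were let-7g-3p with 155 and 100 reads (45.9 RPM ± 9.83, SD, n = 2), let-7e-3p with 69 and 83 reads (28.0 RPM ± 6.24, SD, n = 2) and let-7f-2-3p with 72 and 63 reads (24.6 RPM in both). let-7e-3p and let-7f-2-3p overlapped in level, and at each other step in the order the cell libraries did not overlap. let-7f-1-3p stood at 18.0 and 17.5 times the reads of let-7f-2-3p, although both hairpins encode the same guide.

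**Figure D1:**
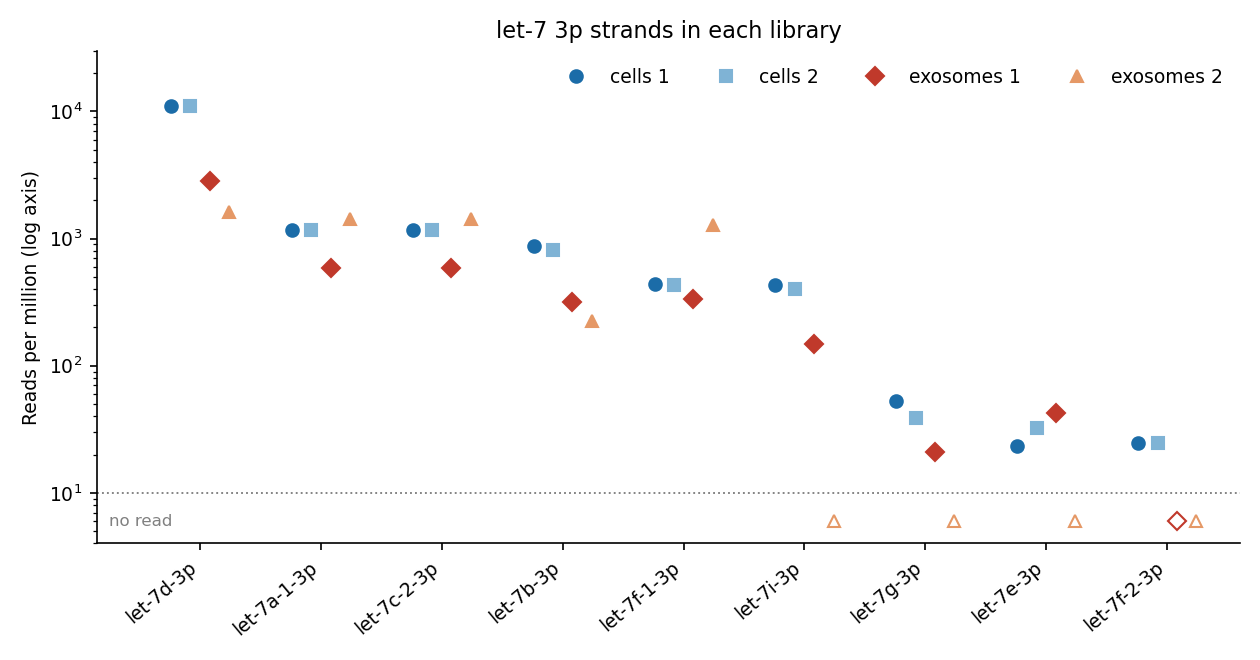
Level of each let-7 3p strand in RPM (log axis) in the 2 cell libraries (blue) and the 2 exosome libraries (red and orange), ordered by the mean of the cells. Open symbols below the dotted line mark libraries without a read. The cell libraries nearly coincide for let-7d-3p at 11060 RPM, whereas exosome library 2 lies above both cell libraries for let-7f-1-3p, let-7a-1-3p and the identical let-7c-2-3p.

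In the exosomes let-7d-3p was still the most frequent strand, but its lead shrank. It had 134 reads in library 1 and 51 in library 2, or 2824 and 1624 RPM, and both values lay below both cell libraries. let-7b-3p had 15 and 7 reads, or 316 and 223 RPM, and was below both cell libraries as well. let-7i-3p had 7 reads and 0 reads, where the cells' level after TMM normalization would have given 55.3 and 28.0 reads. The cells' RPM would have given 19.7 and 13.0 reads.

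let-7a-1-3p and let-7f-1-3p behaved differently from these in the second exosome library. let-7a-1-3p (with the identical let-7c-2-3p) had 28 and 45 reads, or 590 and 1433 RPM, and let-7f-1-3p had 16 and 40 reads, or 337 and 1274 RPM. In both cases exosome library 1 lay below the cells and exosome library 2 above them, although library 2 is the shallower. From library 1 to library 2 the RPM of let-7f-1-3p was 3.78 times as high and that of let-7a-1-3p 2.43 times as high, while let-7f-5p was 4.37 times and let-7a-5p 3.39 times as high in library 1 as in library 2. Of the 8 distinct 3p sequences, 2 were higher in library 2, 5 were lower and 1 had no read in either, and all 8 of the 5p partners were lower.

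The 3 rare strands were at or below the floor in the exosomes. let-7g-3p had 1 and 0 reads, let-7e-3p 2 and 0, and let-7f-2-3p 0 and 0. At the cells' TMM-normalized level, let-7g-3p would have given 6.10 and 3.09 reads, let-7e-3p 3.76 and 1.90, and let-7f-2-3p 3.28 and 1.66. At the cells' RPM the numbers would have been lower, in the same order 2.18 and 1.44, 1.33 and 0.878, and 1.17 and 0.772. With summed counts set over TMM-scaled library sizes, the exosome to cell ratio was 0.107 for let-7g-3p (95% exact interval 0.00271 to 0.604). It was 0.361 for let-7e-3p (0.0433 to 1.33). The intervals cover counting error only, and the ratios depend on the scaling. For let-7f-2-3p no fold is given, since its cell level was 0.736 times the mean of the exosome floors and a difference was not detectable at this depth.

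Tested across all miRNAs, let-7d-3p, the most abundant passenger strand, and let-7b-3p fell in the exosomes, and 0 strands rose. let-7i-3p, let-7g-3p and let-7f-2-3p were called lower too, but had no read in exosome library 2. They passed the filter on low counts through the cells alone, and for let-7f-2-3p no fall can be stated at this depth. In all, 5 of the 9 strands were called lower by the quasi-likelihood test of edgeR with TMM normalization. The threshold was a Benjamini-Hochberg adjusted p under 0.05. Of the 438 miRNAs tested, 29.5% were called lower. let-7d-3p fell by 3.65 on the log2 scale (SE 0.46, adjusted p = 0.00818, edgeR) and let-7b-3p fell by 2.95 (SE 0.37, adjusted p = 0.00818, edgeR). let-7i-3p was lower by 3.70 with a wider error (SE 0.94, adjusted p = 0.0344, edgeR), on 7 and 0 exosome reads. For let-7g-3p the fit gave -3.20 (SE 0.84, adjusted p = 0.0372, edgeR) on a single exosome read. It was not called with library size alone or with upper quartile factors. The call of let-7f-2-3p (adjusted p = 0.0377, edgeR) rests on no exosome read and passed the filter on low counts through the cells alone, so that nothing is read from it.

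The strands that did not pass were those with a higher RPM in exosome library 2 than in the cells, together with let-7e-3p. The log2 fold change was -1.45 for let-7a-1-3p and let-7c-2-3p (SE 0.65, adjusted p = 0.126, edgeR), -1.52 for let-7e-3p (SE 0.91, adjusted p = 0.213, edgeR) and -0.34 for let-7f-1-3p (SE 0.81, adjusted p = 0.722, edgeR). The count of 0 rising strands stayed 0 with DESeq2. At an unadjusted p under 0.05, 5 of the 9 strands were lower with edgeR (35.8% of all tested miRNAs) and 7 with DESeq2 (34.0%), and 0 were higher with either. How many strands separated the groups depended on the scaling. In RPM, 5 of the 9 had each exosome value under each cell value, against 33.8% of all tested miRNAs, and in TMM-normalized CPM 8 of the 9, against 51.8%. Both counts include let-7i-3p, let-7g-3p and let-7f-2-3p, which had no read in exosome library 2 and passed the filter through the cells alone. Among the 5, only let-7b-3p and let-7d-3p had reads in both exosome libraries. The 8 also include let-7e-3p, on 2 and 0 exosome reads, and the shared sequence under 2 names. let-7f-1-3p overlapped on both scales, with 670 and 703 normalized CPM in cells and 189 and 931 in exosomes, and let-7a-1-3p, with the same reads listed again as let-7c-2-3p, overlapped in RPM only, as did let-7e-3p.

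The median log2 fold change of the 9 strands was -2.95, or -1.52 with let-7f-2-3p at its bound, beside a median of -0.75 over all 438 miRNAs tested. With the shared sequence counted as 1 it was -3.08, or -2.24 with the bound. The scaling moved all miRNAs together: with library size alone the median over all was 0.61, and with upper quartile factors -0.07. Relative to that median, let-7d-3p lay at -2.90 with TMM, -2.91 with unscaled library sizes and -2.88 with upper quartile factors. In the same order let-7b-3p lay at -2.21, -2.23 and -2.19, and let-7f-1-3p at 0.41, 0.27 and 0.51. The number of calls changed with the scaling. TMM gave 129 lower and 104 higher miRNAs, library size alone 30 and 137, with let-7d-3p as the only one of the 9 strands called lower (6.85% of all miRNAs), and upper quartile factors 95 and 129, with let-7b-3p, let-7d-3p and let-7i-3p called lower (21.7% of all). The direction of let-7f-1-3p turned with both of the latter, to 0.87 and 0.45 on the log2 scale.

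The calls also changed with a library left out. Without cell replicate 1 or without cell replicate 2, 0 of the 438 miRNAs passed (edgeR), so that these fits say nothing of single strands. The median over the 9 strands was -2.97 and -2.95 there, and 3 of the 9 had a lower level at an unadjusted p under 0.05 in each case, against 17.4% and 15.8% of all miRNAs. Without exosome replicate 1, 6 of the 9 were called lower (36.3% of all), and without exosome replicate 2, 8 of the 9 (38.4% of all), in fits that assume the remaining exosome library to vary as the cell libraries did. let-7f-1-3p had a log2 fold change of 0.39 without exosome replicate 1.

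**Figure D2:**
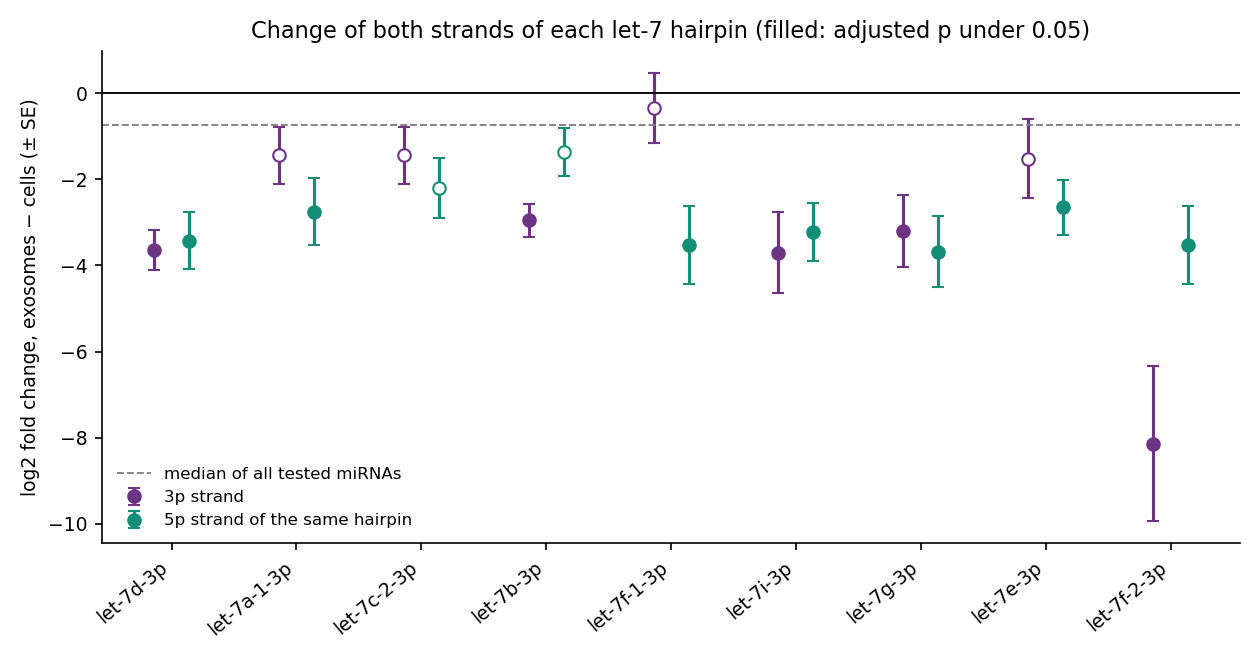
Log2 fold change (exosomes minus cells, ± SE from edgeR) of the 3p strand (purple) and of the 5p strand of the same hairpin (green), with filled symbols where the adjusted p was under 0.05. The dashed line is the median of all tested miRNAs at -0.75. let-7d-3p and let-7d-5p lie side by side near -3.65 and -3.42, and let-7f-1-3p at -0.34 lies far above let-7f-5p at -3.53.

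The 5p guides of the same hairpins set the frame for these changes. Of the 11 main strands listed for let-7 and miR-98 (let-7a-5p to let-7i-5p, let-7j, let-7k and miR-98-5p), 8 fell and 0 rose (edgeR, adjusted p under 0.05). Of all tested miRNAs, 29.5% were called lower. At an unadjusted p under 0.05, 10 of the 11 were lower, against 35.8% of all. let-7d-5p fell by 3.42 (SE 0.67, adjusted p = 0.0203, edgeR), next to the similar fall of let-7d-3p. let-7b-5p, the guide with the smallest change among the partners, had a log2 fold change of -1.37 (SE 0.56, adjusted p = 0.103, edgeR), where let-7b-3p fell by 2.95. let-7f-5p fell by 3.53 (SE 0.90, adjusted p = 0.0344, edgeR), where let-7f-1-3p was at -0.34.

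Passenger strands of other families were also mostly lower in the exosomes. Of 65 such strands on the list, 37 passed the filter on low counts, and of these 21 were called lower and 2 higher (edgeR). Their median log2 fold change was -2.83, and 29.5% of all tested miRNAs were called lower. The most abundant was miR-7a-2-3p, from a beta cell miRNA, with 19561 and 20533 reads in cells and 143 and 66 in exosomes; it fell by 2.85 (SE 0.43, adjusted p = 0.0119, edgeR). miR-7a-1-3p fell by 2.94 (SE 0.38, adjusted p = 0.00860, edgeR) and miR-15b-3p fell by 4.11 (SE 0.99, adjusted p = 0.0314, edgeR). The changes of let-7b-3p, let-7d-3p and let-7i-3p were of the same order, and no test of the difference between the lists was run.

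The 3p share of a pair, that is the 3p reads as a percent of the 3p and 5p reads of its hairpin, does not depend on scaling between libraries. In the cells it was 16.4% and 17.1% for let-7d, so that 5.09 and 4.86 guide reads were found for each passenger read. No other pair came near this. The share was 2.38% and 2.35% for let-7i, 1.22% and 1.14% for let-7b, 1.02% in both libraries for let-7c-2, and 0.791% and 0.800% for let-7a-1. It was 0.244% and 0.251% for let-7f-1, 0.0995% and 0.130% for let-7e, 0.112% and 0.0875% for let-7g, and 0.0136% and 0.0143% for let-7f-2. miR-98, a further hairpin with this guide seed, was at 2.26% and 2.59%.

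In the exosomes let-7d again had the highest share of the 9 pairs. It was 12.6% in library 1 (95% Wilson interval 10.7% to 14.7%) and 18.8% in library 2 (14.6% to 23.9%), so that the exosome libraries lay on both sides of the cells, and the interval of library 1 ended below both cell shares. The exosome minus cell difference was 2.08 percentage points without exosome replicate 1 and -4.18 without exosome replicate 2. The means were 16.7% ± 0.45 in cells and 15.7% ± 4.43 in exosomes (SD, n = 2 each). let-7b moved down in both exosome libraries, to 0.343% (0.208% to 0.565%) and 0.469% (0.227% to 0.965%), which is 15 of 4374 and 7 of 1492 reads. Both intervals ended below the shares in the cells.

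let-7f-1 moved the opposite way, and by very different amounts in the 2 exosome libraries. Its 3p share was 0.508% in library 1 (16 of 3147 reads, 95% Wilson interval 0.313% to 0.824%) and 7.78% in library 2 (40 of 514 reads, 5.77% to 10.4%). Both were above the cells. Library 2 had 11.9 guide reads for each let-7f-1-3p read, where the cells had 410 and 398 and library 1 had 196. At the mean share of the cells, 7.78 and 1.27 reads of let-7f-1-3p would have been found.

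let-7a-1 and let-7c-2, which share the same 3p reads, showed this excess in exosome library 2 alone. The let-7a-1 share was 0.668% in library 1 (95% Wilson interval 0.463% to 0.964%) and 5.24% in library 2 (3.94% to 6.95%), and the let-7c-2 share was 0.610% (0.422% to 0.880%) and 4.16% (3.13% to 5.52%). Exosome library 1 was below the cells in both pairs and exosome library 2 above them.

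For the other pairs the exosome reads were too few to place the share. let-7i had 7 of 361 reads (1.94%, 95% Wilson interval 0.942% to 3.95%) and 0 of 67, which allows a share of up to 4.48%. let-7e had 2 of 725 reads (0.276%) and 0 of 155, which allows up to 1.94%. let-7g had 1 of 729 (0.137%) and 0 of 111, which allows up to 2.70%, and let-7f-2 had 0 of 3131 and 0 of 474, which allow up to 0.0958% and 0.633%. In each of these pairs the limits or intervals include the shares in the cells. The miR-98 pair had 3 of 198 reads (1.52%) and 1 of 31 (3.23%), on both sides of the cells.

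**Figure D3:**
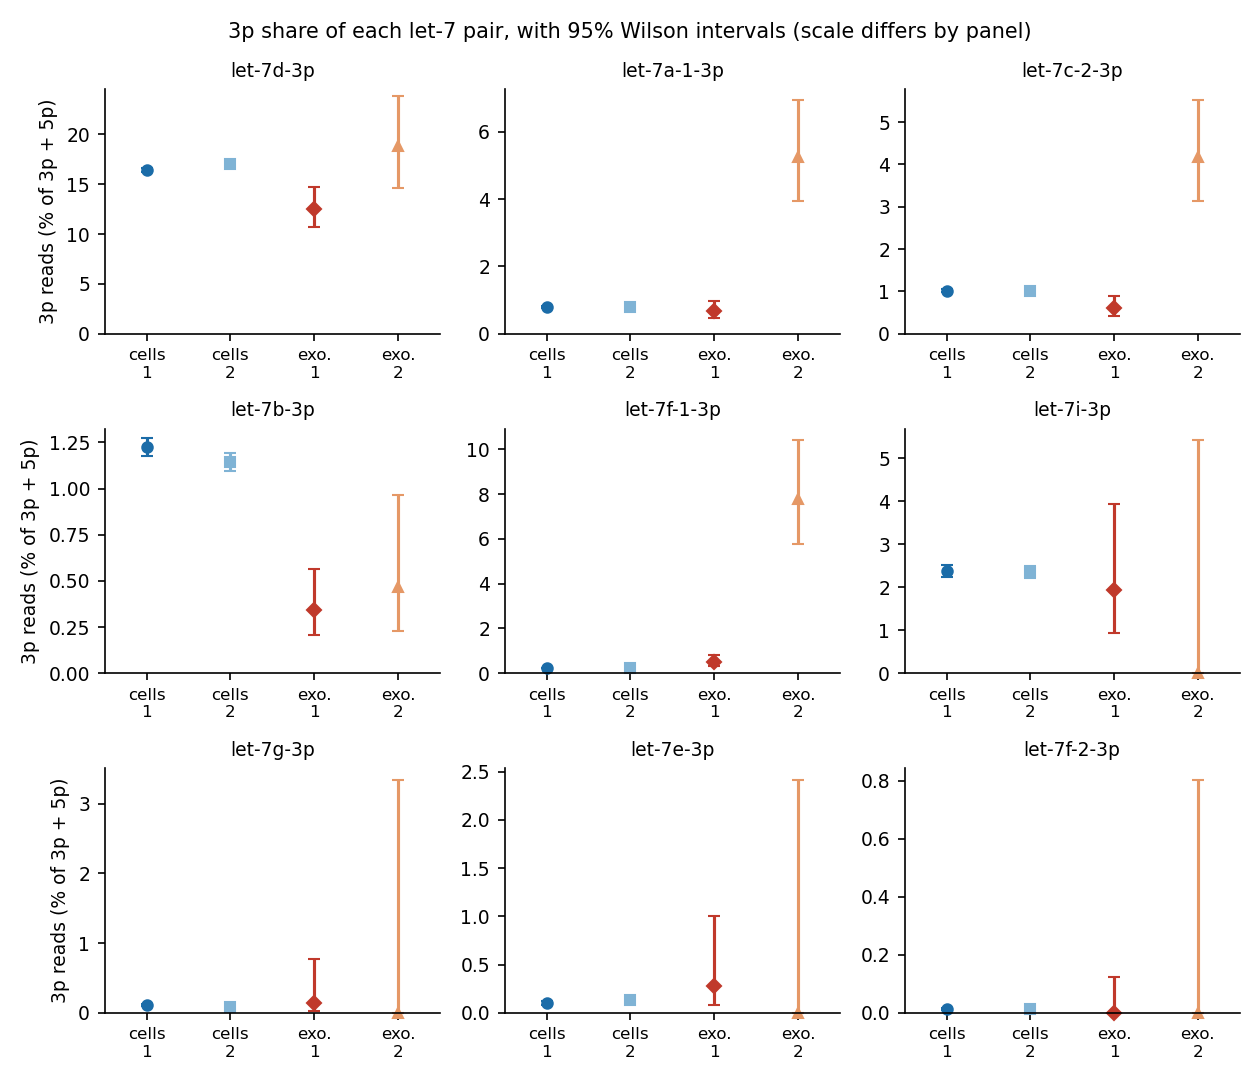
3p reads as a percent of 3p and 5p reads of each let-7 pair in the 2 cell and 2 exosome libraries, with 95% Wilson intervals for counting error (the scale differs by panel). The let-7b panel shows both exosome libraries (0.343% and 0.469%) below the cells, and the let-7f-1 panel shows exosome library 2 at 7.78%, far above the other 3 libraries.

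Counted over the libraries, the shares of cells and exosomes did not overlap for 4 of the 9 pairs, against 66.0% of 197 pairs with at least 1 read on either arm in every library, a condition that all 9 met. let-7b, let-7i and let-7f-2 were lower and let-7f-1 higher, and for let-7i and let-7f-2 the separation rests on libraries without a 3p read. A two-sided exact permutation test of 2 against 2 libraries cannot go below 0.33, which was its p for each of these 4 pairs.

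The change in the 3p to 5p ratio was then tested across 255 pairs of strands in a single edgeR quasi-likelihood fit with each library as a block. It was called for 0 of the 9 let-7 pairs (Benjamini-Hochberg adjusted p under 0.05), where 13.3% of all pairs were called. At an unadjusted p under 0.05 the fit held 2 of the 9, against 25.5% of all pairs, and DESeq2 called 1, let-7b, against 18.0%. let-7f-1 had the largest rise in ratio, by 3.17 on the log2 scale (SE 1.11, adjusted p = 0.0766, edgeR), and let-7b had a change of -1.60 (SE 0.73, adjusted p = 0.182, edgeR). For let-7d, the pair with the most 3p reads, the change was -0.15 (SE 0.64, adjusted p = 0.95, edgeR).

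The remaining pairs lay between these or could not be measured well. The change was 1.30 for let-7a-1 (SE 0.94), 0.69 for let-7c-2 (SE 0.89), 0.95 for let-7e (SE 1.32), 0.25 for let-7g (SE 1.73) and -0.67 for let-7i (SE 0.84), with an SE of 7.10 for let-7f-2, whose exosome reads were 0. The median of the 9 changes was 0.25, beside -0.04 over all 255 pairs, and the median size of the change was 0.95 beside 2.79. Among the passenger strands of other families, 52 pairs were tested, with a median change of -1.08. The passenger to guide ratio in exosomes was called higher for 8 and lower for 1 of them, where 13.3% of all pairs were called.

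Which let-7 pairs passed depended on the library left out and on how shared guides were counted. Without exosome replicate 1, let-7a-1, let-7b, let-7c-2 and let-7f-1 were called (11.0% of all pairs), with a change of 5.09 for let-7f-1. Without exosome replicate 2, let-7b, let-7c-2 and let-7d were called (15.7% of all pairs) and let-7f-1 was at 1.04. In both fits the spread came from the cell libraries alone. let-7b kept its direction in each, at -1.34 and -1.80, while let-7a-1 turned to -0.25 and let-7c-2 to -0.75 without exosome replicate 2. With the reads of let-7f-1-3p and let-7f-2-3p summed over their shared guide, the let-7f pair was called, with a change of 3.10, where 19.1% of the pairs so summed were called.

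**Figure D4:**
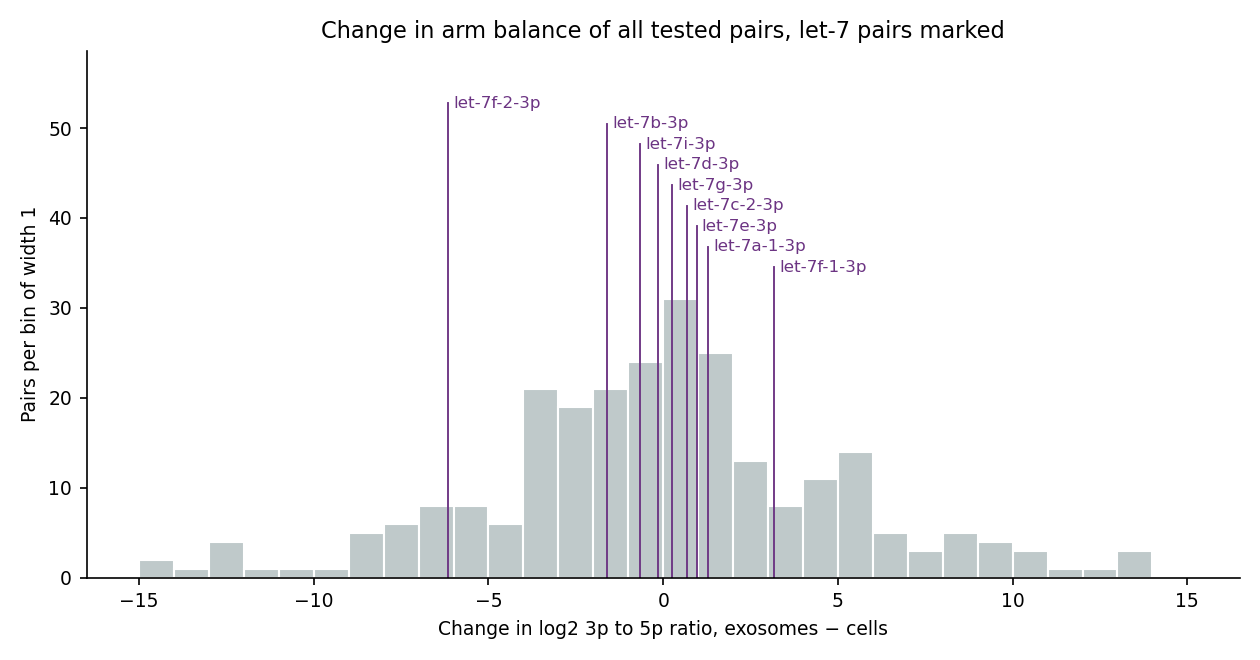
Change in the log2 3p to 5p ratio from cells to exosomes in 255 pairs of strands (grey, number of pairs per bin of width 1), with the 9 let-7 pairs marked by purple lines whose height has no meaning. Of the let-7 pairs, 7 lie between -1.60 and 1.30, let-7f-1 at 3.17 and let-7f-2 at the left on 0 exosome reads.

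The make-up of the 3p reads differed between cells and exosomes, most of all in exosome library 2. Counting the shared sequence as 1, the 3p strands had 41343 and 35707 reads in cells and 203 and 143 in exosomes, which is 2.11%, 2.13%, 1.06% and 3.17% of all reads on both arms. let-7d-3p made up 78.7% and 79.1% of the 3p reads in cells, 66.0% in exosome library 1 and 35.7% in exosome library 2. let-7f-1-3p made up 3.13% and 3.09% in cells, then 7.88% and 28.0% in the exosomes, and the sequence of let-7a-1-3p and let-7c-2-3p 8.22% and 8.43%, then 13.8% and 31.5%. let-7b-3p took between 4.90% and 7.39% in the 4 libraries.

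**Figure D5:**
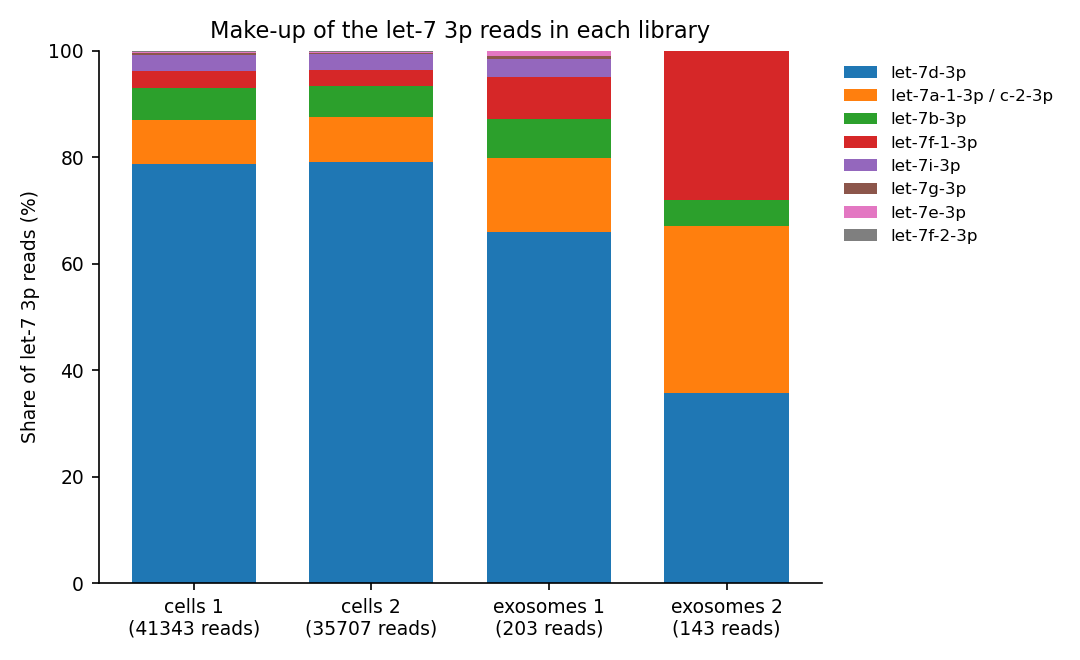
Share of each 3p strand in the let-7 3p reads of a library (stacked bars, percent), with the number of reads under each bar. let-7d-3p fills 78.7% and 79.1% of the cell bars and 35.7% of the bar of exosome library 2, where let-7f-1-3p and let-7a-1-3p with let-7c-2-3p take 28.0% and 31.5%.

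The 3p strands of neighbouring hairpins stood in other ratios in exosomes than in cells. In the cluster on chromosome 13, let-7d-3p had 9.57 and 9.38 reads per read of let-7a-1-3p in cells, then 4.79 and 1.13 in exosomes, and 25.2 and 25.6 per read of let-7f-1-3p in cells, then 8.38 and 1.27. let-7a-1-3p and let-7f-1-3p stayed closer to each other, at 2.63 and 2.73 in cells and 1.75 and 1.12 in exosomes. In the cluster on chromosome 15, let-7b-3p had 0.747 and 0.696 reads per read of let-7c-2-3p in cells and 0.536 and 0.156 in exosomes. let-7a-1-3p and let-7c-2-3p hold the same reads, which cannot be assigned to either hairpin. The ratios with these strands in the 2 clusters are therefore neither independent nor specific to a cluster. The exosome ratios rest on 7 to 134 reads per strand, and no interval was computed for them. On the X chromosome, miR-98-3p fell by 4.42 (SE 0.49, adjusted p = 0.00715, edgeR), from 1188 and 1118 reads in cells to 3 and 1 in exosomes, while its neighbour let-7f-2-3p had none there. let-7b-3p, let-7f-1-3p, let-7a-1-3p and miR-98-3p thus had different values with the same seed.

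The miRNAs of other hairpins whose levels were most like those of let-7d-3p over the 4 libraries were miR-125a-5p, miR-7a-2-3p and miR-23b-3p, at distances of 0.82, 0.95 and 0.98 in log2 CPM. They had 36664 and 32830, 19561 and 20533, and 27908 and 21658 reads in cells, and 227 and 56, 143 and 66, and 120 and 28 in exosomes. The log2 fold changes were -3.32, -2.85 and -3.76. The distance is a description over 4 libraries and depends on the level as well as on the change.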

How the data were processed

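Libraries were prepared with the SMARTer smRNA-Seq kit, 2 from MIN6 cells and 2 from their exosomes, and run on the HiSeq2500. The authors trimmed adapters, removed rRNA reads, and aligned the rest to the genome (mm10 in the submitters' processing notes), to miRBase v21 and RNAcentral v10.0. The mature-strand counts the authors deposited are raw whole reads. RPM values deposited beside them equal each count over the sum of its library. The authors also deposited read counts per hairpin and arm.

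From the counts, miRNAs were kept by filterByExpr (minimum count 10), which left 438 of 1101, and differences between exosomes and cells were tested in edgeR 4.0.16 (quasi-likelihood test, TMM normalization), with Benjamini-Hochberg adjustment over all miRNAs. Pairs of strands counted on both arms (384, of which 255 passed the filter) were tested by the same method on 8 columns, with each library as a block. Other software was DESeq2 1.42.0 under R 4.3.3, and scipy 1.17.1 and matplotlib 3.10.9 under Python 3.11.15. The fits were also run on simulated counts with the same dispersion in all libraries. Those runs do not cover the unequal spread of the real libraries. Between replicates the chi-square per degree of freedom was 58.2 in the exosomes and 19.5 in the cells. Libraries held 31409 to 2930217 counts, and intervals and the floor of 3 counts per library cover counting error only. For let-7f-2-3p, whose exosome counts were all 0, the bound used the mean of both exosome floors.

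The 9 strands and all lists were chosen with earlier results of these data known. The text names the 9 strands with their 5p partners, both miR-98 strands, the let-7 main strands by counts, passenger strands of other families by counts and the 3 most abundant in cells, and the 3 miRNAs nearest to the most abundant strand in log2 CPM (prior count 2). Alternatives were other scalings and filters, DESeq2, exactTest, a replicate block, the top 5 miRNAs of each group left out, shared strands summed, arm counts of the single-sample files, and each library left out. With exactTest a miRNA was called at a fold of 2 and an unadjusted p under 0.05. Hairpin coordinates are those of RefSeq (GRCm38.p6), whose hairpin sequences matched the deposited ones, and mature sequences were checked against RefSeq too. Overlapping genes are those of GENCODE vM21.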

Additional observations from a re-analysis of the deposited data

Results flagged for a closer look

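Reads on neither annotated arm of the 9 let-7 hairpins, which none of the comparisons above use, took a larger share in the exosomes. Their mean was 0.131% of hairpin reads in the exosomes and 0.00183% in the cells. They were 39 of 2450085 and 43 of 2088264 reads in the cells, and 9 of 22006 and 11 of 4976 in the exosomes (reads of shared strands are counted at each hairpin). The share was 0.0409% in exosome library 1 (95% Wilson interval 0.0215% to 0.0777%) and 0.221% in library 2 (0.123% to 0.395%), and both intervals lay above those of the cells. By hairpin the exosome reads were few: let-7f-1 had 4 and 1, let-7i 3 and 2, let-7e 2 and 2, let-7b 0 and 3, and let-7d 0 and 3. The share was not computed for hairpins of other families, so the difference cannot be read as particular to let-7.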

How the results depend on the processing

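The count of 5 strands lower in exosomes was the same with RLE factors (132 of all 438 tested miRNAs lower), DESeq2 (141) and the replicate block (109). It was also 5 with the most abundant miRNAs left out (133 of 432) and 7 without a filter (202 of 1101). exactTest gave 5 as well (173 of 438), but at a fold of 2 and an unadjusted p under 0.05. It was 1 with library size alone, 3 with upper quartile factors, 3 (of 4 tested) with at least 10 counts in every library, and 0 to 8 with a library left out. No strand was called higher under any of these. The median log2 fold change of -2.95 was -3.06 with RLE factors, -1.62 with library size alone, -2.25 with upper quartile factors, -3.05 with DESeq2, -4.25 without a filter, -1.50 with at least 10 counts in every library, -3.11 with the most abundant miRNAs left out, and -3.92 to -2.56 with a library left out. let-7f-1-3p turned to 0.87 with library size alone, to 0.45 with upper quartile factors and to 0.39 without exosome replicate 1 (lowest -1.82, without exosome replicate 2).

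The count of 0 pairs with a changed ratio became 1 without a filter (let-7f-1, beside 12.5% of all pairs). It was also 1 with DESeq2 (let-7b, 18.0%) and 1 with shared strands summed (let-7f, 19.1%). The calls without 1 exosome library are given above. The median change of the let-7 pairs was -1.34 to 0.39 with a library left out. The change of let-7f-2, with no exosome read, turned to 0.11 with DESeq2. With shared strands summed, the let-7f pair was at 3.10, where the reads of let-7f-1-3p are counted too. With a library left out let-7f-2 kept its direction, while that of other pairs turned. Their ranges were -0.48 to 0.21 for let-7d, -6.38 to 1.27 for let-7e, -5.71 to 0.46 for let-7g, -0.25 to 2.79 for let-7a-1 and -0.75 to 2.08 for let-7c-2. The cause was not tested.

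Cell and exosome libraries share replicate numbers, but the labels give no pairing, and with 2 pairs the deviations of same-numbered libraries correlated at 0.19 for levels and -0.03 for arm ratios. With the replicate block, 5 strands were lower (median -2.96), 0 pairs were called (median 0.07), and over all pairs 9 were called in place of 34. The 3p shares of the single-sample files differed from those of the series table by at most 0.0764 percentage points. The 31409 and 47447 exosome counts limit what can be said of let-7e-3p, let-7f-2-3p, let-7g-3p and let-7i-3p.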

Other observations

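Of the other let-7 rows in the table, let-7a-2-3p and let-7c-1-3p, the 3p strands of the second let-7a and let-7c hairpins, were listed at 0 in all 4 libraries. let-7j had 531 and 373 reads in cells and 3 and 0 in exosomes. let-7k had 1041 and 1010 reads in cells and 25 and 11 in exosomes, with a log2 fold change of -1.09 (SE 0.37, adjusted p = 0.0643, edgeR).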
